A study of Mus musculus with 6 samples.

Results

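The cytosolic ribosomal protein genes are the subject here: the Rpl, Rplp and Rps genes, with Rpsa, whose products make up the protein part of the 60S and 40S ribosomal subunits. Members were found by name pattern in the deposited table, and 82 of its 24493 genes matched. Of these, 77 reached a TPM (a length-corrected abundance, here summing to 1000000 in each library) of at least 1 in at least 2 of 6 libraries. They are the members, 46 of the large subunit and 31 of the small one. The other 5 are Rpl10l, Rpl32l, Rpl39l, Rpl3l and Rps4l, whose highest TPM in any library was 0.0603, 0.832, 0.424, 0.0449 and 0.

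RNA was measured in KPCY cells, a mouse pancreatic tumour line of C57BL/6 background with a fluorescent lineage label. The cells carried Pthlh hairpin 1 (shPthlh oligo #1, n = 2), Pthlh hairpin 2 (shPthlh oligo #2, n = 2) or a non-targeting hairpin (shNT, n = 2). Pthlh encodes parathyroid hormone-related protein, and the question of the series is what its knockdown does to the transcriptome. The labels call the samples sorted tumour cells from mice, the protocols speak of culture in DMEM, the design mentions a pair of parental clones, and none of these ties a library to a clone, animal or culture. Each hairpin is 1 construct, and p-values measure the spread between libraries, which may be technical.

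Each ribosome carries a single copy of nearly every ribosomal protein, so cells make these proteins in matched amounts. Their messenger RNAs are short and very abundant, and most begin with a run of pyrimidines, the 5′ TOP motif, through which mTORC1 and the RNA-binding protein Larp1 control their translation and stability. In tumour cells the genes of ribosome production are known to follow Myc and growth signals. Free Rpl5 and Rpl11, bound to 5S RNA, also inhibit Mdm2 and so link ribosome assembly to p53.

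Pthlh was low in every library, at 0 and 0.106 TPM with hairpin 1, 0.0423 and 0.263 TPM with hairpin 2, and 0.752 and 0.966 TPM in shNT. A list of 7 epithelial tumour markers summed to 3759 to 4456 TPM. Lists of myeloid, fibroblast, endothelial, erythroid and lymphocyte markers summed to at most 2.61 TPM in any library and the acinar list to 11.8 to 20.1 TPM; Adgre1, Cpa1, Hbb-bs, Cd3e and Nkg7 were listed at 0 throughout. TPM carries no read number, so the depth behind a value is unknown. In bulk RNA a change in RNA per cell cannot be told apart from a change in the mixture of cells.

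Together the 77 members held 19.4% and 19.8% of all TPM with hairpin 1, 17.8% and 18.5% with hairpin 2, and 13.2% and 18.2% in shNT. The summed TPM was 194253 and 198260 with hairpin 1, 178144 and 185251 with hairpin 2, and 132487 and 181905 in shNT. Both hairpin 1 libraries lay above the other 4, whereas the hairpin 2 libraries lay on either side of shNT replicate 2. One library stood apart, shNT replicate 1. It was the lowest of the 6 libraries for 68 of 77 members, against 29.5% of all 11549 genes tested. TPM is a share of a fixed total, and the entry Mir6236, counted as a small RNA by its name, alone took a large part of that total. The part was 20.4% and 19.7% with hairpin 1, 23.4% and 21.4% with hairpin 2, and 34.1% and 24.3% in shNT. What the reads of Mir6236 come from was not tested. With all small-RNA entries removed, the members held 24.6% and 24.8% of TPM with hairpin 1, 23.5% and 23.7% with hairpin 2, and 20.2% and 24.2% in shNT.

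**Figure D1:**
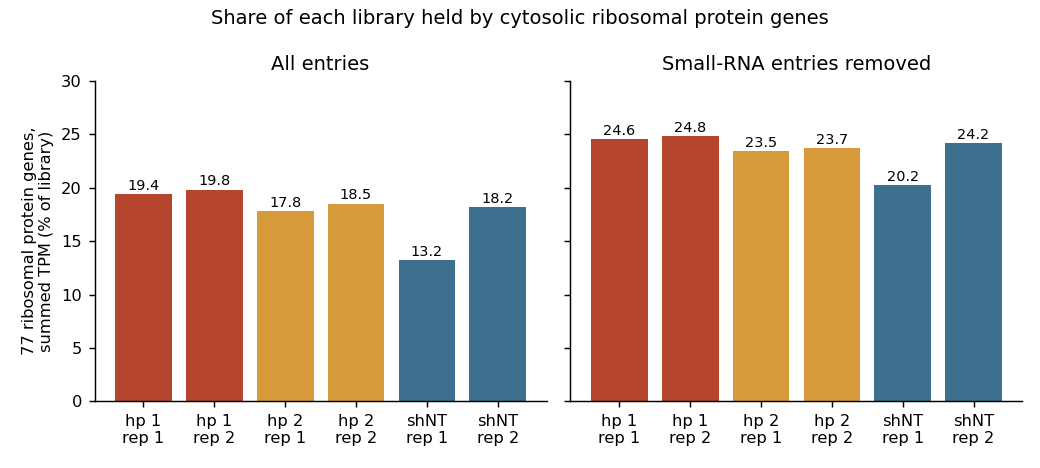
Share of each library's TPM held by the 77 members (vertical axis, percent), 1 bar per library, with all entries at left and without small-RNA entries at right. Replicate 1 of shNT is the lowest bar in both panels, at 13.2% and 20.2%.

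Within shNT the gap followed transcript length. The 20 shortest members, with coding sequences of at most 369 nt, had a median replicate difference of -0.73 (replicate 1 minus replicate 2, log2(TPM + 1)). The 20 longest, of 612 to 1257 nt, had -0.13. Other genes of the same lengths showed -0.30 (493 short genes) and -0.044 (3334 long genes), so the members' gap was larger than that of other short genes. Rps29, a small zinc-binding protein at the head of the 40S subunit, had 3637 and 3564 TPM with hairpin 1, 3626 and 3638 TPM with hairpin 2, and 1125 and 3867 TPM in shNT. The hairpin libraries thus lay between the shNT libraries, and close to replicate 2. Rps28, also of the 40S, had 5478 and 5368 TPM with hairpin 1, 4976 and 5176 TPM with hairpin 2, and 2264 and 5316 TPM in shNT. At the long end, Rpl4 had 1498 and 1430.0 TPM in the shNT libraries. Across members, Spearman's rho between replicate difference and coding length was 0.75 in shNT, 0.09 with hairpin 1 and 0.14 with hairpin 2 (a description over 77 genes of the same libraries). The part of shNT replicate 1 in the comparisons below was not tested; the main counts of calls are given with and without that library.

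**Figure D2:**
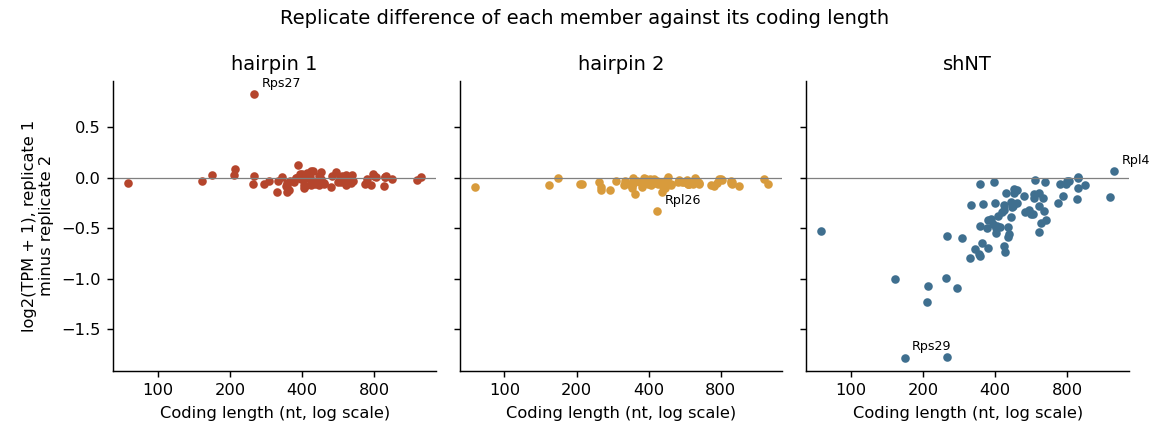
Difference between replicates of each group (vertical axis, replicate 1 minus replicate 2 on the log2(TPM + 1) scale) against coding length (horizontal axis, nucleotides, log scale), 1 point per member. Points lie near 0 at every length with hairpins 1 and 2, apart from Rps27 and Rpl26, and fall away from 0 toward short lengths in shNT.

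Levels per length differed widely among the members. The highest mean over 6 libraries was that of Rplp1, an acidic protein of the ribosomal stalk that recruits elongation factors, with 9246 and 9772 TPM with hairpin 1, 8499.7 and 9147 TPM with hairpin 2, and 6220.4 and 10473 TPM in shNT. It was followed by Rpl41, the shortest ribosomal protein, at a mean of 7047 TPM, Rps2 of the messenger RNA entry channel at 6442 TPM, and Rps21, a small 40S protein, at 6284 TPM. The lowest were Rps15a, a 40S protein, at 92.9 TPM, Rpl22, an RNA-binding protein near the exit tunnel, at 169.7 TPM, Rps20 at 210.3 TPM and Rpl26 at 279 TPM. The median of the members' means was 1747 TPM. Rpl41 had 7766 and 8047 TPM with hairpin 1, 6925 and 7386 TPM with hairpin 2, and 4990.3 and 7167 TPM in shNT. Rps15a had 107 and 104 TPM with hairpin 1, 93.1 and 93.7 TPM with hairpin 2, and 67.1 and 92.3 TPM in shNT. Rpl22 had 212 and 194 TPM with hairpin 1, 159 and 159 TPM with hairpin 2, and 126 and 168 TPM in shNT. In each of these 3, shNT replicate 1 was the lowest library and a hairpin 1 library the highest.

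Some of these levels depend on how reads were shared between near-identical copies. Of each member's 31-base words in GENCODE M21 transcripts, 98.7% of those of Rps27 also occur in Rps27rt, an intronless copy, and 17 of 77 members share at least 10% of their words with another gene. Rps27 had 1125 and 633 TPM with hairpin 1, 859 and 915 TPM with hairpin 2, and 341 and 1170.4 TPM in shNT, the widest hairpin 1 replicate gap of any member. Rps27rt was listed at 4721 to 9753 TPM. Their sum was 10154 and 10386 TPM with hairpin 1, 8775 and 9667 TPM with hairpin 2, and 5063 and 10853 TPM in shNT, so the hairpin 1 libraries were close in the sum. Rpl26 shares 56.1% of its words with Gm15772, which was listed at 1286 to 1745 TPM, so the low rank of Rpl26 is uncertain. Rpl14 shares 54.3%, Rpl34 38.9%, Rplp2 33.1% and Rps2 22.5%, so their values are uncertain too. The authors' annotation is not given in the sources used here.

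The knockdown comparison set the mean of both hairpin groups against shNT, with limma on log2(TPM + 1) over all 11549 genes. Of 77 members, 15 rose, where 27.3% of all tested genes did, and 1 fell, where 12.1% did. The rises were thus fewer than the background share, although the members' median change of 0.30 (log2) was above the median of all genes, 0.10. The single fall was Rpsa. In 37 members all 4 knockdown libraries lay above both shNT libraries, against 30.3% of tested genes, and in 2 members all 4 lay below both, against 10.4%. Without shNT replicate 1, with the remaining shNT library assumed to vary like the other groups, the member median dropped to 0.11 and that of all genes was 0.083. The calls then numbered 28 higher and 10 lower, against 23% and 10.6% of genes. Without shNT replicate 2 they numbered 71 and 2, against 30.2% and 12.2% of genes, and without a single hairpin library 0 to 3 and 0. Without small-RNA entries the median of all genes moved to -0.044 and that of the members to 0.15, with 13 higher and 5 lower. No share of all genes is given for that fit or for the fits without a hairpin library. Their counts are not read as a result about the members. With libraries scaled to an equal mean log TPM of the members, which itself fixes their average change, the member median was 0.024. Then 1 member was higher and 7 lower, against 2.36% and 10.1% of genes.

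The rises in the knockdown comparison were moderate and were carried by proteins of both subunits. Rpl18, a large-subunit protein (chromosome 7, 45715457 to 45720836, plus strand, mm10), had 2485 and 2553 TPM with hairpin 1, 2107 and 2167 TPM with hairpin 2, and 1489 and 1911 TPM in shNT. Its change was 0.46 ± 0.11 (log2, SE; limma adjusted p = 0.0249). Rises and falls were ranked here only among called members with every knockdown library on the same side of both shNT libraries. The lack of overlap in Rpl18, Rpl10, Rps20, Rps2 and Rpsa thus follows from that choice. In Rpl18 the shNT libraries were farther apart than the hairpin libraries.

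Rpl10, which is needed for the last step of 60S maturation, had 2001 and 2069.9 TPM with hairpin 1, 1746 and 1792 TPM with hairpin 2, and 1275 and 1600.5 TPM in shNT. It rose by 0.41 ± 0.10 (log2, SE; limma adjusted p = 0.0276). Rps20 (chromosome 4, 3831334 to 3835665, minus strand), a protein of the 40S head, had 259 and 264 TPM with hairpin 1, 194 and 198 TPM with hairpin 2, and 159 and 189 TPM in shNT, a rise of 0.38 ± 0.08 (adjusted p = 0.0138) in which hairpin 2 replicate 1 stood just above the higher shNT library. Rps2 had 7290.4 and 7714 TPM with hairpin 1, 6298 and 6516 TPM with hairpin 2, and 5018 and 5813 TPM in shNT, a rise of 0.36 ± 0.11 (adjusted p = 0.0461).

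Rpsa, the 40S protein also known as the laminin receptor (chromosome 9, 120127689 to 120132369, plus strand), moved the other way. It had 1395 and 1384 TPM with hairpin 1, 1246 and 1271 TPM with hairpin 2, and 1588 and 1584 TPM in shNT. The replicates were close in each group, and the shNT libraries were the 2 highest, as the naming rule required. Its change was -0.26 ± 0.05 in the knockdown comparison, -0.19 ± 0.06 with hairpin 1 and -0.33 ± 0.06 with hairpin 2 (log2, SE; limma adjusted p = 0.0149, 0.0466 and 0.0346). The 13 calls on named members held when 1 shNT library was left out. Such a fit takes the gap between the shNT libraries out of the estimate of spread, so it cannot show that the calls are robust. Leaving out a single hairpin library ended 12 calls without replicate 1 of hairpin 1 or of hairpin 2, and 13 without replicate 2 of either.

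**Figure D3:**
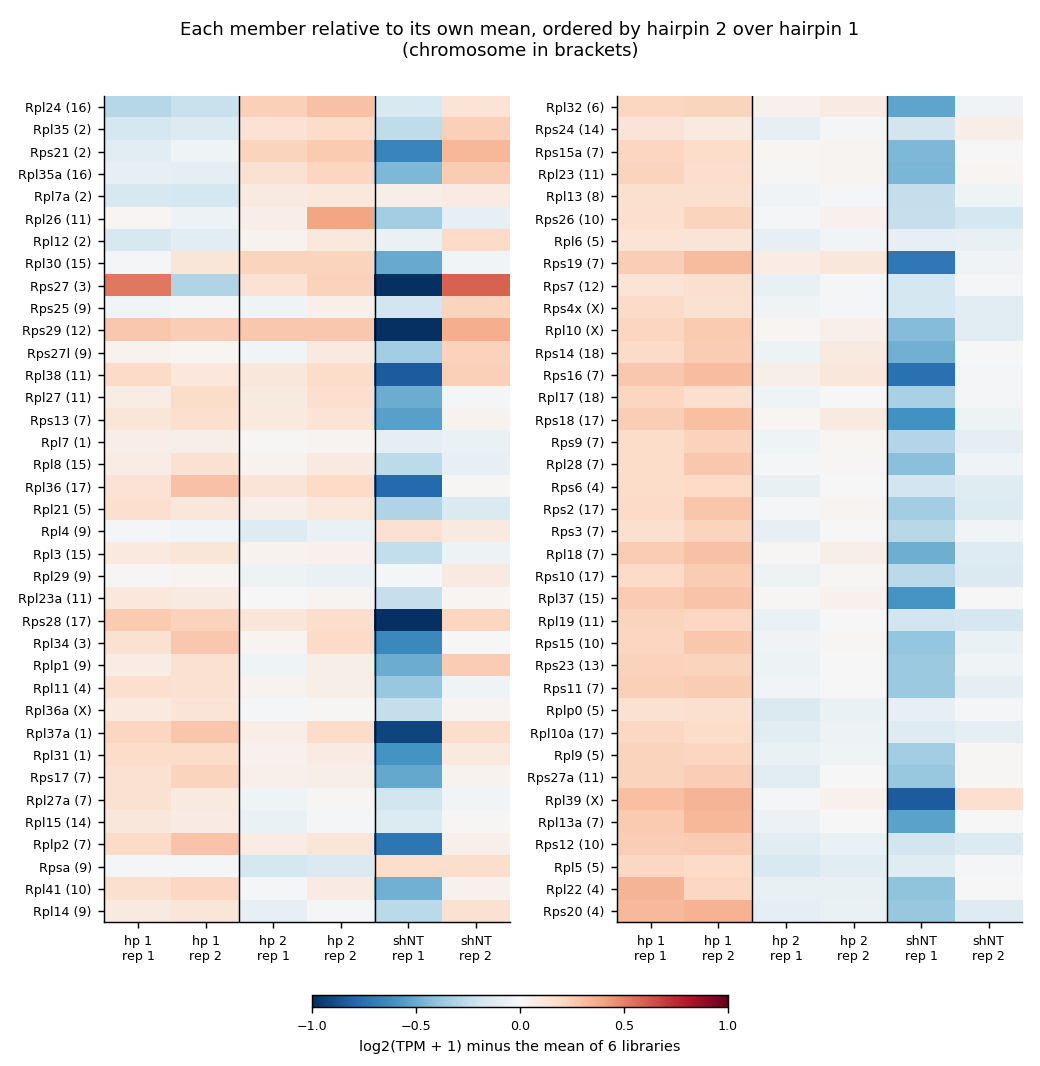
Level of the members reported by name, in each library (columns), as log2(TPM + 1) minus the member's mean over the 6 libraries, from blue (lower) to red (higher); colours stop at 1 and -1, beyond which the shNT replicate 1 values of Rps27, Rps28 and Rps29 lie. Members run from the highest to the lowest hairpin 2 over hairpin 1 difference, with the chromosome in brackets.

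Each hairpin against shNT gave a different picture. With hairpin 1, 32 of 77 members rose and 2 fell, against 32.1% and 18.1% of all genes, and the member median was 0.39 against 0.11 for all genes. Both hairpin 1 libraries lay above the other 4 libraries in 54 members, against 34.6% of genes. Without shNT replicate 1, 46 members were called higher and 9 lower, against 31% and 17.8% of genes, with a median of 0.19 against 0.087. Without shNT replicate 2, 69 were called higher and 3 lower, against 34.9% and 18.6% of genes. Without a single hairpin 1 library 2 were higher, and without a single hairpin 2 library 13. With hairpin 2, no member rose and 1, Rpsa, fell, against 6.62% and 3% of genes; the member median was 0.21 against 0.09 for all genes. Without shNT replicate 1 that median was 0.017, with 1 member higher and 1 lower, against 5.89% and 2.46% of genes. Without shNT replicate 2, 61 were higher and 2 lower, against 18.1% and 4.87% of genes. With libraries scaled to an equal mean log TPM of the members, which itself fixes their average change, the hairpin 2 median was -0.0020. The comparisons share the shNT libraries. By subunit, 14 of 46 large-subunit and 18 of 31 small-subunit members rose with hairpin 1, with medians of 0.34 and 0.42.

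The direct comparison of the hairpins does not use shNT levels. The member median was -0.16 (hairpin 2 minus hairpin 1, log2) and that of all genes -0.0058, and 65 of 77 members were lower with hairpin 2. By the test, 2 members were higher and 8 lower, against 19.9% and 20.2% of genes. Both hairpin 1 libraries lay above both hairpin 2 libraries in 59 members and below both in 8, against 39.2% and 37.8% of genes. The shNT libraries enter this fit only through the spread: without shNT replicate 1, 7 members were called higher and 48 lower, against 23.8% and 25.2% of genes, and the fit of the 2 hairpin groups alone also called 7 higher and 48 lower. Without any 1 of the 4 hairpin libraries no member was called.

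Among the 8 lower members, Rps20 had 194 and 198 TPM with hairpin 2, against 259 and 264 TPM with hairpin 1, a difference of -0.41 ± 0.09 (log2, SE; limma adjusted p = 0.0148). Rpl5, which with Rpl11 binds 5S RNA (chromosome 5, 107900502 to 107909005, plus strand), had 587 and 606 TPM with hairpin 2, against 757 and 748 TPM with hairpin 1, a difference of -0.33 ± 0.06 (adjusted p = 0.00892). In shNT it had 602 and 647 TPM, so hairpin 2 overlapped shNT and hairpin 1 was above both. Rps12, a protein of the 40S beak, had 3799 and 3894 TPM with hairpin 2, against 4831 and 4863 TPM with hairpin 1 (-0.33 ± 0.09; adjusted p = 0.0318). Rpl10a, Rpl19, Rps6 (the S6 kinase substrate) and Rps4x were also lower, with differences of -0.27, -0.25, -0.23 and -0.20.

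The members higher with hairpin 2 were Rpl24 and Rpl7a. Rpl24, a large-subunit protein at the bridge to the 40S (chromosome 16, 55966275 to 55971435, plus strand), had 1529.8 and 1591 TPM with hairpin 2, against 1064 and 1115 TPM with hairpin 1, a difference of 0.52 ± 0.11 (log2, SE; limma adjusted p = 0.0150). Its shNT values were 1168 and 1432 TPM, between the hairpins. Rpl7a, a large-subunit protein (chromosome 2, 26910764 to 26913318, plus strand), had 2391 and 2417 TPM with hairpin 2, against 2004 and 1984 TPM with hairpin 1 (0.27 ± 0.07; adjusted p = 0.0309), and 2333 and 2379 TPM in shNT. It fell with hairpin 1 against shNT by 0.24 on the log2 scale (adjusted p = 0.0361).

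Members differed by chromosome, a grouping chosen after the values were seen. All 4 members on chromosome 2 (Rpl7a, Rpl12, Rpl35 and Rps21) and both on chromosome 16 (Rpl24 and Rpl35a) were higher with hairpin 2 than with hairpin 1, with medians of 0.29 and 0.40 (log2). The other tested genes of those chromosomes had medians of 0.28 (917 genes) and 0.27 (359 genes). Of the 64 members outside chromosomes 2, 9 and 16, 60 were lower with hairpin 2. Rpl35, a protein at the exit tunnel, had 4275 and 4400.4 TPM with hairpin 2, against 3421 and 3516 TPM with hairpin 1, and 3233 and 4552 TPM in shNT. Rpl12, at the base of the stalk, had 4447 and 4671 TPM with hairpin 2, against 3867 and 4009 TPM with hairpin 1, and 4146 and 4944 TPM in shNT. Rps21 had 7134 and 7342 TPM with hairpin 2, against 5689.6 and 5941 TPM with hairpin 1, and 3887 and 7709 TPM in shNT.

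Against shNT, the 7 members on chromosome 9 (Rpl4, Rpl14, Rpl29, Rplp1, Rps25, Rps27l and Rpsa) had a median of -0.015 with hairpin 1 and -0.012 with hairpin 2, where the 644 other genes of the chromosome had -0.13 and -0.10. Without shNT replicate 1 the medians were -0.14 and -0.20, with all 7 members below 0 in both, and those of the other genes -0.14 and -0.10. Rpl4, which lines the exit tunnel, had 1326 and 1323 TPM with hairpin 1, 1232 and 1287 TPM with hairpin 2, and 1498 and 1430.0 TPM in shNT; its knockdown change of -0.18 ± 0.06 missed the threshold (limma adjusted p = 0.0534). All 64 members on the other chromosomes were above 0 with hairpin 1, with a median of 0.42, where all tested genes had 0.11. Without shNT replicate 1, 61 of the 64 were above 0, with a median of 0.21. For each member the median change of its 20 nearest tested genes on each side was taken. Across members this correlated with the member's own change at Pearson's r = 0.75 and Spearman's rho = 0.55 for hairpin 1 against shNT, and at 0.68 and 0.33 for hairpin 2 against hairpin 1, a description over genes of the same libraries.

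In an alternative added after the values were seen, each chromosome was centred on its own median in every library. All 77 members were then above 0 with hairpin 1, where the median of all genes was 0.10 and that of the members 0.31. Both shNT libraries were included. Of the 77 members, 17 passed the test, against 29.5% of genes, and none was lower, against 14.2%. The hairpin 2 minus hairpin 1 difference of Rpl24 was then 0.23 and that of Rpl7a -0.021, and Rpsa, which had fallen with hairpin 1, had a change of 0.038 there. The member median for hairpin 2 against hairpin 1 was -0.12, with 0 members higher and 3 lower, against 16.6% and 18.2% of genes. What underlies the shared shifts along chromosomes was not tested.

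**Figure D4:**
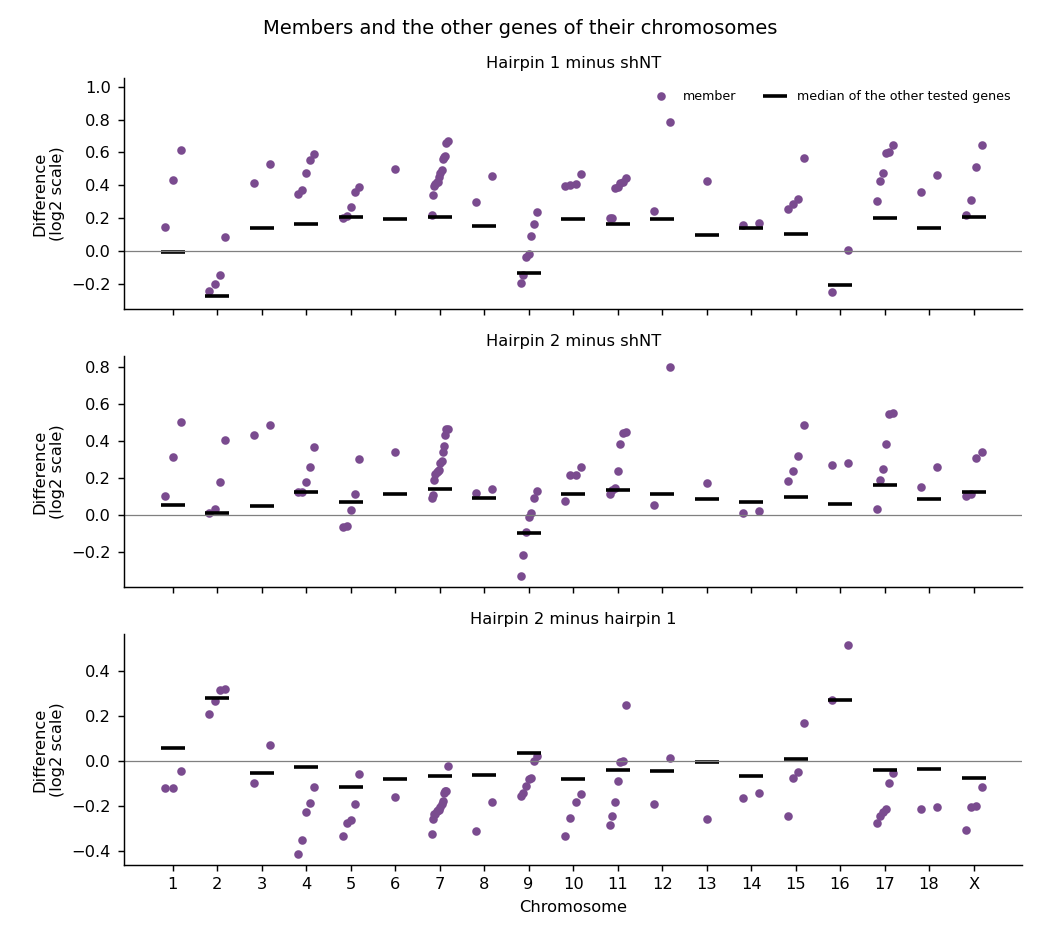
Difference of each member (points, log2 scale) by chromosome, with the median of the other tested genes of that chromosome (black bars), for hairpin 1 minus shNT, hairpin 2 minus shNT and hairpin 2 minus hairpin 1. Members follow the bars on chromosomes 2 and 16 in the bottom panel, at medians of 0.29 and 0.40.

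The 3 listed members of the messenger RNA entry channel, Rps2, Rps3 and Rps9, rose with hairpin 1, against 32.1% of all genes; the count was also 3 without either shNT library and 0 without any 1 of the hairpin libraries. Rps3, which also acts in DNA repair, had 821 and 855 TPM with hairpin 1, 693 and 729 TPM with hairpin 2, and 605 and 721 TPM in shNT (hairpin 1 change 0.34 ± 0.10, log2, SE; limma adjusted p = 0.0291). Of the 4 exit tunnel genes, Rpl17 and Rpl22 rose with hairpin 1 (adjusted p = 0.0466 and 0.0311) and Rpl4 and Rpl39 were not called. In the stalk, Rplp0, its base, had 3649 and 3668 TPM with hairpin 1, 2969 and 3130.4 TPM with hairpin 2, and 3101 and 3252 TPM in shNT, so hairpin 1 was above both other groups and hairpin 2 overlapped shNT (hairpin 1 change 0.20 ± 0.09; limma adjusted p = 0.0986). Rplp2 had 5269.5 and 5632 TPM with hairpin 1, 4866 and 5023 TPM with hairpin 2, and 2803 and 4789 TPM in shNT (hairpin 1 change 0.57 ± 0.25; adjusted p = 0.108). Rplp1, given above, also missed the threshold. None of the 3 stalk genes was called in any of the 4 comparisons.

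Of the 5S pair, Rpl5 rose with hairpin 1 by 0.27 ± 0.06 (log2, SE; limma adjusted p = 0.0139). Rpl11 had 2596 and 2568 TPM with hairpin 1, 2366 and 2401 TPM with hairpin 2, and 1775 and 2245 TPM in shNT, and its hairpin 1 change of 0.37 ± 0.12 was just short of the threshold (adjusted p = 0.0521). Of the genes that have a tissue-restricted relative, Rps4x rose by 0.21 ± 0.05 in the knockdown comparison (adjusted p = 0.0267), with 1314 and 1279.7 TPM with hairpin 1, 1123 and 1134 TPM with hairpin 2, and 1022 and 1066 TPM in shNT. Rpl3, at the peptidyl transferase centre, had 1352 and 1373 TPM with hairpin 1, 1289.6 and 1297 TPM with hairpin 2, and 1066 and 1219 TPM in shNT, and rose with hairpin 1 (0.26 ± 0.08; adjusted p = 0.0464). Rpl39, an exit tunnel protein, had 1879.7 and 1927 TPM with hairpin 1, 1501 and 1573 TPM with hairpin 2, and 858 and 1719 TPM in shNT, with no call. Rps27l, the p53-responsive relative of Rps27, had 514 and 508 TPM with hairpin 1, 490.4 and 535 TPM with hairpin 2, and 393 and 588 TPM in shNT, which enclosed the hairpin values. The relatives Rpl3l, Rpl10l, Rpl39l and Rps4l stayed below the filter in every group.

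The start of the gene is shown for 12 members named above, some called in a comparison and others not. Their transcripts' first bases are where a 5′ TOP motif would lie. RefSeq promoter entries (GRCm38.p6) matched 57 of 77 members. Each window holds 30 bases before and 20 from the annotated start, and capitals mark the longest run of C and T that covers or lies within 10 bases of that start. The first 6 are the members of chromosomes 2 and 16.
Rpl7a (chr2:26910777-26910826, plus): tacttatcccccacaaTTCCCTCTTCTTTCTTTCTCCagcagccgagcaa
Rpl12 (chr2:32961682-32961731, plus): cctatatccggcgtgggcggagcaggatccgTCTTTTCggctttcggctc
Rpl35 (chr2:39005112-39005161, minus): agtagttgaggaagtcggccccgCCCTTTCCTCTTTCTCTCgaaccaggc
Rps21 (chr2:180257349-180257398, plus): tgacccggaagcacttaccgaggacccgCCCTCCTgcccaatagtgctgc
Rpl24 (chr16:55966245-55966294, plus): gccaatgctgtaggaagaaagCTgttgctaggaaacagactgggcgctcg
Rpl35a (chr16:33056423-33056472, plus): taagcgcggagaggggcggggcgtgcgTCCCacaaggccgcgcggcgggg
Rpl18 (chr7:45718041-45718090, plus): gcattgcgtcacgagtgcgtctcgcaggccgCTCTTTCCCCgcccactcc
Rps2 (chr17:24720033-24720082, plus): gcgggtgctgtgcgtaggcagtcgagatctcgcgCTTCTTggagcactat
Rpsa (chr9:120127736-120127785, plus): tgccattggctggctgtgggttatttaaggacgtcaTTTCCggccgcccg
Rpl4 (chr9:64173357-64173406, plus): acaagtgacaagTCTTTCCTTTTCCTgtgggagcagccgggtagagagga
Rps12 (chr10:23787190-23787239, minus): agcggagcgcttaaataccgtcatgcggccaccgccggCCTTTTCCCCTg
Rpl5 (chr5:107900498-107900547, plus): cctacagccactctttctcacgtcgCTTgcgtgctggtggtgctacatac

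The run was 21 bases in Rpl7a, 18 in Rpl35 and 14 in Rpl4, but 2 in Rpl24. Rpl24 and Rpl7a, the members called higher with hairpin 2, thus held the shortest and the longest run of the 12. Its median length was 7 over the 57 members and 4 over all 27025 promoters, and it reached 8 bases in 26 members, or 45.6%, against 13.9% of all promoters. The piece CTCTTTC on the plus strand lay in 21.1% of member promoters and 3.91% of all, within 250 bases before to 50 after the start. The letters CCGGAAG, an ETS factor motif, lay on either strand in 40.4% of member promoters and 9.12% of all. The annotated RefSeq start was within 10 bases of the outer GENCODE gene boundary in 18 of the 57. That boundary spans all transcripts of a gene, so it does not show which start is the true first base. Windows may thus be off centre, and no match says only that these letters are not in the window.

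The run at the start did not separate the members by response. The 26 with a run of at least 8 bases had medians of 0.41 with hairpin 1 against shNT and -0.16 with hairpin 2 against hairpin 1 (log2), and the 31 with a shorter run had 0.39 and -0.19. These are descriptions of chosen groups without a test.

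Core ribosomal proteins outside the name pattern, and like-named relatives of ribosomal proteins, were measured too. Rack1, a 40S scaffold, had 1134 and 1092 TPM with hairpin 1, 958 and 991 TPM with hairpin 2, and 919 and 955 TPM in shNT, and rose with hairpin 1 by 0.25 ± 0.06 (log2, SE; limma adjusted p = 0.0200). Of 7 such genes, 1 rose in the knockdown comparison, Rpl7l1, and 2 with hairpin 1, against 27.3% and 32.1% of all genes. The counts were 2 and 3 without shNT replicate 1, 7 and 6 without shNT replicate 2, and 0 without any 1 of the hairpin libraries.

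The factors that build ribosomes went the other way between the hairpins. Of 39 ribosome assembly genes, 27 were higher and none lower with hairpin 2 than with hairpin 1, against 19.9% and 20.2% of all genes, with a median of 0.27 (log2) where the ribosomal protein genes had -0.16. Nop56, a core protein of the box C/D particles that methylate ribosomal RNA, had 299.5 and 300.4 TPM with hairpin 2, against 199 and 189 TPM with hairpin 1 (0.63 ± 0.05, SE; limma adjusted p = 0.000824), and 311 and 296 TPM in shNT. Rrp9, of the U3 particle, had 59.5 and 64.6 TPM with hairpin 2, against 45.1 and 44.8 TPM with hairpin 1 (0.45 ± 0.07; adjusted p = 0.00469), and 62.5 and 69.1 TPM in shNT. Utp20, a processome scaffold, had 19.3 and 18.2 TPM with hairpin 2, against 13.6 and 12.7 TPM with hairpin 1 (0.48 ± 0.06; adjusted p = 0.00219), and 18 and 17.8 TPM in shNT. In all 3 genes hairpin 1 was the low group, and hairpin 2 was close to shNT.

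Against shNT, 15 assembly genes fell and none rose with hairpin 1, against 18.1% and 32.1% of genes, and 6 rose and none fell with hairpin 2, against 6.62% and 3% of genes, among them Sbds, which frees the 60S subunit for use. In the knockdown comparison 5 rose and 4 fell, against 27.3% and 12.1% of genes. Without shNT replicate 1, 1 rose and 17 fell with hairpin 1, and 3 rose and 5 fell in the knockdown comparison. With chromosomes centred, 28 of the 39 were higher with hairpin 2 than with hairpin 1, against 16.6% of genes; without shNT replicate 1 the count was 30. It was 16 or 15 when replicate 1 or 2 of hairpin 1 was dropped, and 16 or 11 when replicate 1 or 2 of hairpin 2 was. No setting that left out 1 library called any of them lower. Nop56 and Nop10 lie on chromosome 2, with the 4 members there that were higher with hairpin 2. The 15 falls with hairpin 1 were 6 and 5 without hairpin 1 replicate 1 or 2, and 9 without either hairpin 2 library. The 6 rises with hairpin 2 were 0 without any 1 of the hairpin libraries, 3 without shNT replicate 1 and 15 without shNT replicate 2.

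**Figure D5:**
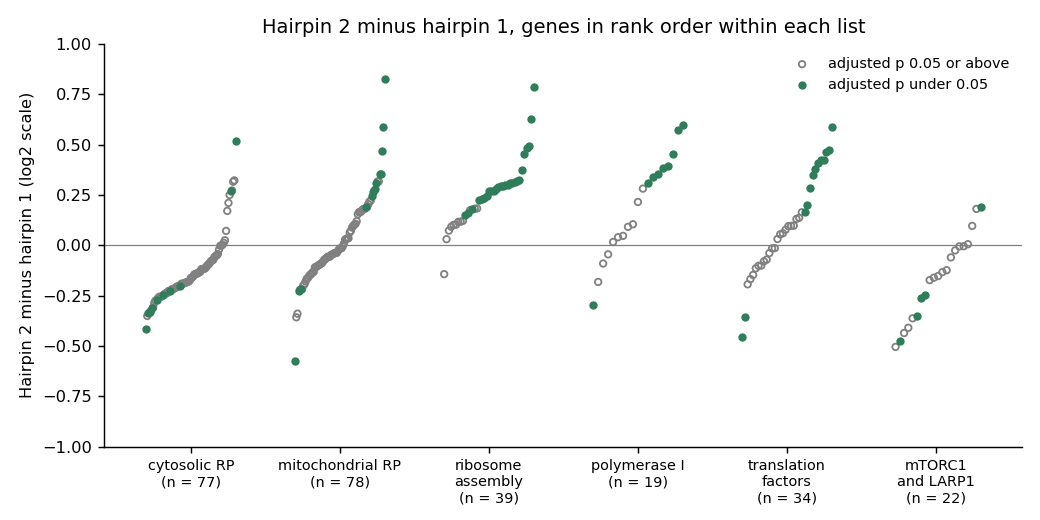
Difference between hairpin 2 and hairpin 1 (vertical axis, log2 scale) for each gene of 6 lists, in rank order within a list; filled points passed the limma test and open points did not. Deptor, at -2.1, lies outside the axis. The cytosolic ribosomal protein genes lie mostly below 0 and the assembly genes mostly above.

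Genes of RNA polymerase I, which transcribes ribosomal RNA, were split. Of 19, 8 were higher and 1 lower with hairpin 2 than with hairpin 1, against 19.9% and 20.2% of all genes, and 10 and 2 without shNT replicate 1. Of the 8, 3 lie on chromosome 2 or 16; with chromosomes centred, 8 were higher and 1 lower. Polr1b, its second largest subunit, had 31.1 and 31.8 TPM with hairpin 2, against 21 and 20.6 TPM with hairpin 1 (0.57 ± 0.04, log2, SE; limma adjusted p = 0.000608), and 30.1 and 30.6 TPM in shNT. Rrn3, its initiation factor, had 44.0 and 42.7 TPM with hairpin 2, against 28.8 and 27.9 TPM with hairpin 1 (0.60 ± 0.05; adjusted p = 0.00110), and 42.3 and 39.1 TPM in shNT. Polr1b lies on chromosome 2 and Rrn3 on chromosome 16, and their centred differences were 0.28 and 0.31 (adjusted p = 0.00637 and 0.00730). Polr1c, a subunit shared with polymerase III, was the exception, with 85.5 and 90.1 TPM with hairpin 2, against 107 and 109 TPM with hairpin 1 (-0.29 ± 0.08; adjusted p = 0.0332), and 65.4 and 76.3 TPM in shNT. Against shNT, 4 of the 19 rose and 4 fell with hairpin 1, against 32.1% and 18.1% of genes, and 5 and 6 did without shNT replicate 1. The count of 8 was 5 without replicate 2 of either hairpin.

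Of 34 translation factors, 11 were higher and 2 lower with hairpin 2 than with hairpin 1, against 19.9% and 20.2% of all genes. Of the 11, 5 lie on chromosome 2 or 16; with chromosomes centred, 8 were higher and 2 lower. With hairpin 1 against shNT 6 rose and 8 fell, against 32.1% and 18.1% of genes. Without shNT replicate 1 the counts were 15 and 6 between the hairpins, and 8 and 12 with hairpin 1. Eif4g1, the scaffold of the cap-binding complex, had 411 and 414 TPM with hairpin 2, against 309 and 307 TPM with hairpin 1 (0.42 ± 0.05, log2, SE; limma adjusted p = 0.00234), and 401 and 379.9 TPM in shNT. It lies on chromosome 16, and its centred difference was 0.14 (adjusted p = 0.0786). Eif3f, an eIF3 subunit, was 1 of the 2 lower genes, with 143 and 147 TPM with hairpin 2, against 183 and 189 TPM with hairpin 1 (-0.35 ± 0.06; adjusted p = 0.00632), and 145 and 133 TPM in shNT. Without small-RNA entries, none of these factors rose and 12 fell with hairpin 1. The count of 11 was 7 without replicate 1 of either hairpin and 5 without replicate 2 of either.

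The regulators of ribosomal protein translation were listed as well. Of 22 genes of mTORC1 signalling and Larp1, 16 rose and 1, Tsc1, fell with hairpin 1 against shNT, against 32.1% and 18.1% of all genes. None passed with hairpin 2, against 6.62% and 3% of genes; 1 rose without shNT replicate 1 and 7 without shNT replicate 2. With hairpin 1 the counts were 16 and 1 without shNT replicate 1. The risers held activators and inhibitors alike. Deptor, an inhibitor of mTOR, had 11.4 and 10.4 TPM with hairpin 1, 1.75 and 1.79 TPM with hairpin 2, and 1.81 and 1.73 TPM in shNT, a rise of 2.1 ± 0.08 with hairpin 1 (log2, SE; limma adjusted p = 8.61e-05). Lamtor4, of the Ragulator that anchors mTORC1 to lysosomes, had 55.6 and 55.3 TPM with hairpin 1, 41.9 and 41.1 TPM with hairpin 2, and 24.7 and 33.5 TPM in shNT (hairpin 1 change 0.92 ± 0.13; adjusted p = 0.00321). The count of 16 was 7 without small-RNA entries and 10 with chromosomes centred. It was 6 or 7 when replicate 1 or 2 of hairpin 1 was dropped, and 10 when either hairpin 2 library was.

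Of Myc and its partners, 9 of 10 were tested; 2 rose and 2 fell with hairpin 1, against 32.1% and 18.1% of all genes, and 2 and 1 did without shNT replicate 1. Myc had 71.1 and 67.3 TPM with hairpin 1, 103 and 102 TPM with hairpin 2, and 106 and 89.5 TPM in shNT, and fell with hairpin 1 by 0.49 on the log2 scale (limma adjusted p = 0.00616). The Myc antagonists Mxd1 and Mxd3 rose with hairpin 1, and Mxd4, Mxi1 and Mnt were not called. Mga, also a partner of Max, fell (-0.21 ± 0.06, log2, SE; adjusted p = 0.0351); it lies on chromosome 2, and with chromosomes centred its change was 0.16 (adjusted p = 0.0964). Mxd1 had 6.78 and 6.25 TPM with hairpin 1, 4.23 and 4.39 TPM with hairpin 2, and 3.65 and 3.46 TPM in shNT (hairpin 1 change 0.72 ± 0.07; adjusted p = 0.00106), and Mxd3 changed by 0.83 ± 0.06 with hairpin 1 and by 0.41 ± 0.06 with hairpin 2 (adjusted p = 0.000337 and 0.0223).

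The mitochondrial ribosome is built from a separate set of nuclear genes. Of 78 mitochondrial ribosomal protein genes, 32 rose and 3 fell in the knockdown comparison, where 15 and 1 of the 77 members did and 27.3% and 12.1% of all genes. Their medians were 0.22 with hairpin 1 and 0.22 with hairpin 2, and -0.016 for hairpin 2 against hairpin 1. Mrpl2, of its large subunit, had 100.2 and 102 TPM with hairpin 1, 95.3 and 94.8 TPM with hairpin 2, and 70.0 and 68.4 TPM in shNT, a knockdown change of 0.50 ± 0.03 (log2, SE; limma adjusted p = 0.000963). Without small-RNA entries 12 rose and 6 fell. The count of 32 was 18 or 16 when replicate 1 or 2 of hairpin 1 was dropped, 15 when replicate 2 of hairpin 2 was dropped and 50 without shNT replicate 2; without shNT replicate 1, 24 rose and 4 fell. Whether the cytosolic and mitochondrial sets differ was not tested.

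The genes whose log2 levels over the 6 libraries were most like the mean of the members, among 6837 with a mean TPM of at least 10, were Ndufs4, Tmem14c, Triap1, Mpdu1 and Ndufb6, at Pearson's r of 0.996 to 1.00. Ndufs4 had 29.2 and 29.4 TPM with hairpin 1, 26.5 and 27.6 TPM with hairpin 2, and 20 and 26.6 TPM in shNT. All 5 had their lowest value in shNT replicate 1 and their highest in a hairpin 1 library. That pattern follows from choosing them by likeness to the mean of the members.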

How the data were processed

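RNA from 6 libraries in 3 groups of 2 was analysed. The deposited values are TPM for 24493 genes in 1 table, and each column sums to 1000000, so the depth per library is unknown and no counting interval is given. Per the submitters' processing notes, Salmon, DESeq2, R 3.5 and mm10 were used by the authors; the order and the annotation are not given in the sources used here.

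Values were taken as log2(TPM + 1). The 11549 genes that reached a TPM of 1 in 2 or more libraries were fitted with limma 3.58.1 in R 4.3.3, with 3 group means, a trended prior and Benjamini-Hochberg adjustment over all of them at 0.05; the fit was tested on simulated data. Genes were named by rank, and called members by size of change only in the knockdown comparison and between the hairpins. In the former, every knockdown library also had to lie on the same side of both shNT libraries. Also named were members with a special role, those of the highest and lowest levels, and up to 3 genes of each other list with the smallest p. A few genes are counted but not reported here by name. The members and lists were chosen with earlier results of these data known. Coordinates, coding lengths and 31-base words came from GENCODE M21, and promoters from RefSeq GRCm38.p6. The 1276 small-RNA entries, recognised by name, were removed in 1 alternative. Other alternatives changed the scaling, pseudocount, filter, prior, block, groups fitted, length trend and libraries. Chromosome centring was added after the data were seen.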

Additional observations from a re-analysis of the deposited data

Results flagged for a closer look

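The hairpins differed in the members named here by the test of the difference itself (limma, adjusted p under 0.05, hairpin 2 minus hairpin 1 on the log2 scale). Lower with hairpin 2 were Rps20 (-0.41), Rpl5 (-0.33), Rps12 (-0.33), Rpl10a (-0.27), Rpl19 (-0.25), Rps6 (-0.23) and Rps4x (-0.20). Higher with hairpin 2 were Rpl7a (0.27) and Rpl24 (0.52). In each of them the hairpin 2 libraries lay on 1 side of both hairpin 1 libraries. Among all tested genes, both hairpin 1 libraries lay above both hairpin 2 libraries in 39.2% and below both in 37.8%. By the test, 19.9% of all genes were higher with hairpin 2 and 20.2% lower, where 2 and 8 of the 77 members were. With chromosomes centred the difference was -0.021 for Rpl7a and 0.23 for Rpl24.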

How the results depend on the processing

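With 2 libraries a group, calls depended on the setting, and the cause was not tested. Where no share of all genes stands beside a count, here or in the results above, the count is not read as a result about the members. In the knockdown comparison (15 members higher, 1 lower, median 0.30), median-ratio scaling called 4 and 3, quantile normalization 7 and 5 (median 0.092), scaling by the members 1 and 7 (median 0.024), chromosome centring 8 and 0, and pooling the hairpins as 1 group 0 and 0, where 1 gene passed overall and 2567 did at an unadjusted p under 0.05. No expression filter gave 3 higher; 5 were lower without small-RNA entries, 2 with a mean TPM of at least 5, 2 with a constant prior and 6 with the length trend removed.

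For hairpin 1 against shNT (32 and 2, median 0.39), median-ratio scaling called 19 and 4, quantile normalization 13 and 6 (median 0.14), scaling by the members 2 and 9 (median 0.054), no filter 11 and 0, the compared groups alone 13 and 0, and chromosome centring 17 and 0. Without small-RNA entries 6 were lower (median 0.22) and with the length trend removed 5 (median 0.22). For hairpin 2 against shNT (0 and 1, median 0.21), 1 was higher with a mean TPM of at least 5 and 2 were higher and 2 lower with the length trend removed. None was lower with no filter, the compared groups alone or chromosome centring, and the median was 0.035 with quantile normalization and -0.0020 scaled by the members.

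For hairpin 2 against hairpin 1 (2 and 8), 5 and 5 were called without small-RNA entries, 6 and 0 scaled by the members, 1 and 2 with no filter, 7 and 48 with the compared groups alone, 4 and 13 with the length trend removed, and 0 and 3 with chromosome centring. Chromosome centring turned the sign of Rpsa (0.038) and Rpl7a (0.13) in hairpin 1 against shNT, and of Rpl7a (-0.021), Rpl12 (-0.080) and Rpl35a (-0.012) in hairpin 2 against hairpin 1. Without small-RNA entries the members' share of TPM was 24.6% and 24.8% with hairpin 1, 23.5% and 23.7% with hairpin 2, and 20.2% and 24.2% in shNT.

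Leaving out 1 library at a time gave 0 to 71 higher and 0 to 10 lower (median 0.11 to 0.47) in the knockdown comparison, 2 to 69 and 0 to 9 (0.19 to 0.55) with hairpin 1, 0 to 61 and 0 to 2 (0.017 to 0.37) with hairpin 2, and 0 to 7 and 0 to 50 (-0.19 to -0.13) between the hairpins. Replicate differences were not shared between groups (correlations over genes of -0.04, 0.02 and 0.02), which cannot show whether libraries were prepared in pairs. With the replicate block 20 and 1, 36 and 1, 0 and 0, and 2 and 6 members were called in the 4 comparisons in that order.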
